A study of Homo sapiens with 4 samples.

Results

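A pooled CRISPR-Cas9 screen in the human colorectal cancer cell line HCT116 asked which knockouts of metabolic enzymes change the response to oxaliplatin, a platinum drug that crosslinks DNA. Described here are the sgRNAs that were well counted without the drug and took a larger share of the counts in every library made after it. They were chosen by their counts in these same 4 libraries, as the 120 of 7142 sgRNAs with at least 100 counts in the PBS library and with a CPM (counts scaled to a library total of 1000000) at least 2 times the PBS value in each of oxaliplatin replicates 1, 2 and 3. Cells carrying the library of 1773 genes, with 4 sgRNAs for each gene and 50 further entries of 1 sgRNA, were selected with puromycin at 0.8 µg/mL and then kept for 7 days with PBS (1 library) or with oxaliplatin at 10 µM (3 libraries). The labels give no agent beyond these, and the 4 groups of cells were split from 1 transduced and selected population. What the 50 further entries stand for is not stated in those sources.

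In such a screen a lentivirus brings 1 sgRNA into a cell, Cas9 is guided by it to a target gene and cuts there, and the integrated sgRNA then serves as a barcode of the cells with that knockout. An sgRNA whose share grows under a drug marks cells that were lost less than their neighbours, or that divided more. An effect of a knockout is usually looked for in several sgRNAs of the same gene. The library covers enzymes of sugar, lipid, nucleotide and amino acid metabolism, of respiration, of cofactor synthesis and of glycan assembly. The files name each sgRNA by a number and a gene symbol, so the sgRNAs are identified that way here.

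Library totals were 8934799 counts with PBS and 27563013, 10494731 and 11146921 for oxaliplatin replicates 1, 2 and 3. The PBS library differed in its dropouts, with 1354 sgRNAs at 0 counts against 164, 22 and 2 in the oxaliplatin replicates. The 2283 sgRNAs with fewer than 100 counts there held 0.0953% of its counts but 15.0%, 14.7% and 15.7% of those of the oxaliplatin replicates. Among the 4859 well-counted sgRNAs, oxaliplatin replicates 2 and 3 correlated at a Pearson r of 0.955 on the log2(CPM + 1) scale, and replicate 1 with them at 0.594 and 0.621. The PBS library correlated with replicates 2 and 3 at 0.709 and 0.729 and with replicate 1 at 0.465, so that by this measure replicate 1 stood apart. These correlations run across sgRNAs, which are no independent samples. No pair of libraries agreed within sampling noise (chi-square per degree of freedom at least 100.6). There was 1 PBS library, so its spread is unknown, all 3 comparisons share it, and no test of the drug is given. Because these same values chose the 120 sgRNAs, they are a description. The intervals of folds below cover counting error only. Those of shares treat sgRNAs as independent draws, which they are not.

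The 120 sgRNAs were 2.47% of the 4859 well-counted ones. A CPM at least 2 times the PBS value was reached by 509 of the 4859 in replicate 1 (10.5%), by 508 in replicate 2 (10.5%) and by 505 in replicate 3 (10.4%). The well-counted sgRNAs as a whole went the other way, with median folds of 0.199, 0.636 and 0.718 over PBS in replicates 1, 2 and 3. In all 3 replicates 1216 of them, or 25.0%, were at most 0.5 times the PBS value. Without replicate 1 the same rule found 387 sgRNAs (7.96%), which include all 120.

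As a group the 120 sgRNAs grew from 1.23% of the PBS counts to 8.62%, 4.79% and 4.28% of the counts of oxaliplatin replicates 1, 2 and 3. Their median count was 651 with PBS and 12946, 3310 and 3351 in the oxaliplatin replicates, and their median folds were 4.76, 3.50 and 3.23. The gain was moderate for most of them. The lowest of the 3 folds lay under 3 for 70 sgRNAs, from 3 to 4 for 24, from 4 to 8 for 20 and at 8 or above for 6. At least 4-fold in all 3 replicates was reached by 26 of the 4859 (0.535%). The lower bound of the exact 95% interval of the ratio stayed at 2 or above in all 3 replicates for 106 (2.18% of the well-counted sgRNAs), and was above 1 for all 120. The rule, with at least 100 PBS counts and a fold of at least 2, already set a bound above 1. Neither count is therefore a test of the gains.

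The fold of an sgRNA differed most between replicate 1 and the other replicates. It was highest in replicate 1 for 70 sgRNAs, lowest there for 35 and between the others for 15. The folds of replicates 2 and 3 lay within 1.5 times of each other for 106 of the 120, with 2.34 times as the largest ratio. The SD of the log2 fold over the 3 replicates had a median of 0.45. The sgRNA with the largest spread targets NUDT16, a Nudix hydrolase of RNA caps and inosine nucleotides. It had 390 counts with PBS and 84462, 1571 and 1534 in replicates 1, 2 and 3, or folds of 70.2, 3.43 and 3.15 (SD of the log2 fold 2.55). A fold of at least 20 was seen for 9 sgRNAs in replicate 1, for 2 in replicate 2, FUT1 and GMPPA, and for 3 in replicate 3, these and PTGIS. The smallest spread belonged to the single-sgRNA entry HGLibA_14136, at folds of 2.33, 2.34 and 2.33.

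Of the 1748 genes with at least 1 well-counted sgRNA, 113 held 1 or more of the 120 sgRNAs (6.46%), and the remaining 5 were single-sgRNA entries. Of the 1559 genes with at least 2 well-counted sgRNAs, 2 genes, AZIN2 and ITPK1, held 2 (0.128%), and no gene held more. AZIN2 is the antizyme inhibitor 2, a relative of ornithine decarboxylase without its catalytic activity that binds antizyme and so spares the decarboxylase, the entry enzyme of polyamine synthesis. ITPK1 is a kinase that phosphorylates inositol phosphates on the way to the higher inositol polyphosphates. The count of such genes depended on the settings. Without replicate 1 there were 40, with DESeq2 size factors 21 and with TMM scaling 27, both of these genes among them each time, and with TMM 1 gene, LTC4S, held 3. With a PBS minimum of 300 counts AZIN2 was lost and ITPK1 alone was left.

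The first AZIN2 sgRNA (sgRNA_6149) had 202 counts with PBS and 5320, 787 and 602 in oxaliplatin replicates 1, 2 and 3, or folds of 8.54 (95% exact interval 7.42 to 9.87), 3.32 (2.84 to 3.89) and 2.39 (2.03 to 2.82). The second (sgRNA_6151) had 1270 counts with PBS and 22731, 3506 and 3502 in the replicates, or folds of 5.80, 2.35 and 2.21. Both were higher in all 3 replicates and highest in replicate 1. The remaining well-counted AZIN2 sgRNA (sgRNA_6152) did not share this, with 1464 counts with PBS and 1259, 1038 and 1316 in the replicates, or folds of 0.279, 0.604 and 0.721. The last AZIN2 sgRNA (sgRNA_6150) was at 0 with PBS and had 3, 99 and 252 counts, which is at least 28.1-fold and 67.3-fold higher in replicates 2 and 3 against a floor of 3 counts per library. Such a pattern, at 0 with PBS and present with oxaliplatin, was common in the library, where 1354 sgRNAs were at 0 with PBS and 164, 22 and 2 in the replicates.

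The first ITPK1 sgRNA (sgRNA_1833) had 410 counts with PBS and 4285, 1485 and 1758 in oxaliplatin replicates 1, 2 and 3, or folds of 3.39, 3.08 and 3.44, among the more even of the 120 (SD of the log2 fold 0.09). The second (sgRNA_1835) had 458 counts with PBS and 10842, 1263 and 1413 in the replicates, or folds of 7.67, 2.35 and 2.47. The third (sgRNA_1836) ran against them. It had 2393 counts with PBS and 36, 722 and 1185 in the replicates, or folds of 0.00488, 0.257 and 0.397. The fourth (sgRNA_1834) was at 0 with PBS and had 56, 265 and 467 counts, at least 6.05-, 75.2- and 124.8-fold higher against the floor. This pattern, too, was common among the 1354 sgRNAs at 0 with PBS. The 2 genes thus each had a pair of sgRNAs above the 2-fold line, 1 well-counted sgRNA below the PBS value in all 3 replicates and 1 sgRNA absent with PBS.

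The same was asked of all 113 genes, whose 4 sgRNAs each left 337 others. Of these, 46 were at 0 with PBS, 48 had 1 to 99 counts there and 243 were well counted. None of the 243 passed the rule, so they are set beside all 4739 well-counted sgRNAs that did not pass it, which include the 243. The share of the 243 at least 2-fold higher was 9.47%, 11.1% and 11.1% in replicates 1, 2 and 3, beside 8.21%, 8.19% and 8.12% of the 4739. Their median folds were 0.268, 0.697 and 0.738, beside 0.187, 0.617 and 0.700. At or above the PBS value in all 3 replicates were 24 of the 243 (9.88%, beside 6.98%), and below it in all 3 were 121 (49.8%, beside 56.6%). The other sgRNAs of these genes were thus mostly below the PBS value, as the 4739 were. The small distance between the 243 and the 4739 that contain them was not tested.

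Of the 113 genes, 108 had another well-counted sgRNA. At most 0.5 times the PBS value in all 3 replicates were 51 of the 243 others (21.0%, beside 25.7% of the 4739). LDHAL6A, a lactate dehydrogenase relative, held others far from its member. Its sgRNA among the 120 had 200 counts with PBS and 2210, 3699 and 3219 in the replicates, or folds of 3.58, 15.7 and 12.9, while its other sgRNAs had 1677, 592 and 773 counts with PBS and folds from 0.123 to 0.661. PFKFB1, which makes and breaks an activator of phosphofructokinase, ENO3, the muscle enolase, and ECI2, an enoyl-CoA isomerase of fat oxidation, also had all 3 others below the PBS value in every replicate. In 22 genes another well-counted sgRNA came close, at least 2-fold higher in 2 of the 3 replicates, which 24 of the 243 were (9.88%, beside 6.65% of the 4739). Among them were CPOX, SDHA, SRM, PTGIS, PTGES2, LYPLA1, MAN1B1 and ST6GALNAC6.

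The 10 highest gains, by the lowest of the 3 folds, came from 1 sgRNA each of 10 genes. The sgRNA of FUT1, the fucosyltransferase that makes the H antigen, had 178 counts with PBS and 10309, 9366 and 6549 in oxaliplatin replicates 1, 2 and 3. Its folds of 18.8 (95% exact interval 16.2 to 21.9), 44.8 (38.6 to 52.3) and 29.5 (25.4 to 34.4) made it the sgRNA with the highest minimum of the 120. Of the other FUT1 sgRNAs, the well-counted ones had 2200 and 446 counts with PBS and folds of 0.0990, 1.30 and 1.68 and of 0.260, 1.25 and 2.16, so that neither was higher in replicate 1. The last had 2 counts with PBS and 187, 1744 and 1065 in the replicates.

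The sgRNA of CPOX, the coproporphyrinogen oxidase of heme synthesis, had 133 counts with PBS and 18264, 3080 and 2621 in the replicates, or folds of 44.5, 19.7 and 15.8. CPOX is also the gene whose other sgRNAs came nearest to it among these examples. Its next sgRNAs had 482 and 1172 counts with PBS, with folds of 0.352, 3.45 and 2.24 and of 1.14, 2.64 and 4.77, both at least 2-fold higher in replicates 2 and 3 and not in replicate 1. The last was at 0 with PBS and had 34, 24 and 104 counts. Without replicate 1, CPOX and ST6GALNAC6, a sialyltransferase, were the genes with 3 sgRNAs past the rule.

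The next sgRNAs by their lowest fold were 1 each of TGDS, a nucleotide-sugar dehydratase (folds of 9.58, 11.4 and 14.9), COX16, an assembly factor of cytochrome c oxidase (9.90, 9.01 and 8.85), and B3GAT2, a glucuronosyltransferase (9.22, 11.8 and 8.41). They had 250, 243 and 1091 counts with PBS. GMPPA, the regulatory partner in GDP-mannose synthesis, had 207 counts with PBS and folds of 8.07, 25.9 and 20.8, and PTGIS, the prostacyclin synthase, had 275 and folds of 7.75, 18.6 and 21.2. Both were lowest in replicate 1. PIK3CD, the delta catalytic subunit of PI3-kinase, followed at 11.2, 7.64 and 7.76, then PLA2G12A, a secreted phospholipase, at 22.2, 6.39 and 7.94, and ADCY9, an adenylyl cyclase, at 8.91, 9.16 and 5.71. The other sgRNAs of these genes followed only in part. The nearest was a PTGIS sgRNA with 613 counts with PBS and folds of 1.68, 2.77 and 3.14, then 1 of PIK3CD at 0.268, 2.27 and 1.95 and 1 of PLA2G12A at 3.15, 0.817 and 1.04. The 3 others of B3GAT2 had 1507, 9201 and 1835 counts with PBS and folds from 0.302 to 1.19, and the 2 well-counted others of ADCY9 had folds from 0.219 to 0.475.

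To see which enzymes the 113 genes are, every gene of the library was placed in 1 of 26 classes by its symbol, and the share of each class was read against the 2.47% of all well-counted sgRNAs. The share was highest for heparan, chondroitin and hyaluronan synthesis, the enzymes that build and sulfate long glycosaminoglycan chains on cell surfaces and in the matrix, and their relatives. There 9 of 188 well-counted sgRNAs were among the 120 (4.79%, 95% exact interval 2.21 to 8.89), 1 for each of 9 genes. By role, HS3ST1, HS3ST3B1 and HS3ST4 add a late sulfate to heparan glucosamine, HS2ST1 sulfates its uronic acid, NDST4 removes acetyl groups and sulfates the nitrogen, and CHST12 sulfates chondroitin. GAL3ST3, which sulfates galactose, and B3GAT1 and B3GAT2, which transfer glucuronic acid, are relatives placed here by symbol rather than builders of these chains. Among the 9, B3GAT2 had the highest lowest fold (8.41). The HS3ST3B1 sgRNA had 366 counts with PBS and 5349, 2391 and 1930 in the replicates, or folds of 4.74, 5.56 and 4.23. That of GAL3ST3 had 1194 counts with PBS and 152229, 5688 and 5645 in the replicates, or folds of 41.3, 4.06 and 3.79, far higher in replicate 1. Apart from these and B3GAT2, described above, the class had lowest folds from 2.12 for HS3ST1 to 3.52 for CHST12. Over the whole class the median folds were 0.292, 0.779 and 0.857, so that most of its sgRNAs were below the PBS value. Without replicate 1 the share was 13.3%, beside 7.96% of all.

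Phosphoinositide and inositol phosphate enzymes, which make and break the lipid and soluble signals of inositol, came next with 7 of 178 (3.93%, interval 1.60 to 7.93), on 6 genes. Without replicate 1 the share was 9.55%, beside 7.96% of all, and the class had rank 8, as it did with DESeq2 size factors. The kinase side held PIK3CD, the regulatory subunits PIK3R5 and PIK3R2, and ITPK1 with its 2 sgRNAs. The hydrolase side held INPP5J, a phosphatase, and PLCB2, a phospholipase C. The PIK3CD sgRNA had 448 counts with PBS and 15492, 4021 and 4335 in the replicates, and that of PIK3R5 had 382 and 23439, 2050 and 1961, or folds of 19.9, 4.57 and 4.11. PIK3CD, PIK3R5, PLCB2 and the second ITPK1 sgRNA were highest in replicate 1. The folds of INPP5J, 4.03, 4.54 and 4.11, and of PIK3R2, 2.81, 3.08 and 3.14, hardly differed between the replicates.

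Amino acid, urea cycle, creatine and polyamine metabolism held 12 of 323 (3.72%, interval 1.93 to 6.40), on 11 genes. Beside AZIN2, the polyamine genes held SRM, the spermidine synthase, whose sgRNA had 682 counts with PBS and 18391, 2913 and 3412 in the replicates, or folds of 8.74, 3.64 and 4.01. Of its other sgRNAs, 1 with 899 counts with PBS was at 0.132, 3.59 and 2.84, higher in replicates 2 and 3 alone. ACY3 and ACY1, aminoacylases, had folds of 13.9, 4.51 and 4.45 and of 8.13, 3.77 and 2.91. NAGS makes the activator of the urea cycle, PYCR3 and PRODH2 act on proline and hydroxyproline, SDSL on serine, KYAT1 on kynurenine and TH on tyrosine, and DIO3 inactivates thyroid hormone. Their lowest folds lay from 2.03 for TH to 3.61 for SDSL. TH, KYAT1 and SDSL were lowest in replicate 1, where DIO3 stood at 25.6 beside 2.69 and 3.08.

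The enzymes of glycolysis, glycogen and the citrate cycle held 12 of 326 (3.68%), on 12 genes. This share fell below that of all well-counted sgRNAs with DESeq2 size factors (4.91% beside 5.58%), with TMM scaling (5.52% beside 6.59%) and without replicate 1 (6.75% beside 7.96%). At the top of glycolysis were PFKL and PFKP, subunits of phosphofructokinase, with folds of 3.80, 2.58 and 2.30 and of 2.64, 2.86 and 2.85, and PFKFB1, at 14.0, 4.87 and 5.37. Lower down were GAPDH at 2.59, 5.80 and 4.77, ENO3 at 3.88, 2.65 and 2.05, LDHA at 2.29, 2.29 and 2.45, and LDHAL6A. Of gluconeogenesis, PC, which carboxylates pyruvate, was at 2.85, 6.92 and 7.57, PCK1 at 4.45, 2.98 and 3.69, and G6PC3, a glucose phosphatase, at 2.46, 3.49 and 3.99. GYS1, the muscle glycogen synthase, was at 5.79, 2.64 and 3.29 and PGM1, which interconverts glucose phosphates, at 2.00, 4.95 and 5.97. The 12 were divided over which replicate was highest. In replicates 2 and 3 this class as a whole was 2-fold higher in 7.36% and 9.20% of its well-counted sgRNAs, beside 10.5% and 10.4% of all. In replicate 1 it was the other way, with 12.3% beside 10.5%.

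Lipid assembly, that is glycerolipid, phospholipid and sphingolipid synthesis, held 9 of 276 (3.26%). The triglyceride route held LPIN2, a phosphatidate phosphatase, at folds of 7.84, 3.65 and 2.87, MOGAT2 at 31.8, 4.29 and 6.96 and DGAT2 at 2.90, 3.75 and 3.45. PCYT1B, PEMT and LPCAT4 act on phosphatidylcholine and were at lowest folds of 2.39, 2.57 and 2.73, PLPP4 and PHOSPHO1 are phosphatases, and SMPD4 cleaves sphingomyelin. The PHOSPHO1 sgRNA had the highest count of the 120, with 156544 in replicate 1 beside 5589 and 5586 in replicates 2 and 3 and 1352 with PBS. Nucleotide metabolism held 10 of 366 (2.73%). Its share was 8.20% with DESeq2 size factors (beside 5.58% of all), 9.29% with TMM scaling (beside 6.59%) and 10.4% without replicate 1 (beside 7.96%). PFAS and CAD, of the purine and pyrimidine synthesis routes, were at folds of 4.32, 4.02 and 3.10 and of 2.22, 3.62 and 2.91. TK1 and UCK1, salvage kinases, were at 5.20, 3.17 and 3.11 and at 7.75, 3.30 and 2.48, and IMPDH1, NT5DC2, XDH, OAS2, NUDT10 and NUDT16 made up the rest.

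Respiratory complexes II to V with cytochrome c and coenzyme Q held 5 of 157 (3.18%), and complex I held 1 of 116 (0.862%). Without replicate 1 these shares were 6.37% and 6.90%, both below the 7.96% of all. SDHA, the flavoprotein of succinate dehydrogenase, had 627 counts with PBS and 6551, 5619 and 4542 in the replicates, or folds of 3.39, 7.63 and 5.81. The other 4 belong to cytochrome c oxidase, as the assembly factors COX16 and COX11 and the subunits COX5B and COX7A2, the last 3 with lowest folds from 2.07 to 2.29. NDUFB1, of complex I, had the fewest PBS counts of the 120, 111, and 1904, 594 and 1026 in the replicates, or folds of 5.56 (interval 4.59 to 6.80), 4.56 (3.71 to 5.63) and 7.41 (6.09 to 9.10). Golgi glycosyltransferases held 8 of 321 (2.49%), near the background. Beside FUT1 they were B4GALT3, A4GNT, FUT4, B3GNT5, COLGALT1, ST6GALNAC1 and ST6GALNAC6, with lowest folds from 3.35 to 4.96. COLGALT1, a collagen galactosyltransferase, is placed here by symbol rather than by its place in the cell. Dolichol-linked glycan and GPI anchor assembly held 3 of 141 (2.13%), namely GMPPA, MAN1B1, a mannosidase of glycan trimming, and PIGH, of the first step of GPI synthesis, at 10.5, 11.1 and 4.75.

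Several classes were below the 2.47%, and for some of them this turned with the settings. Thiol, peroxide and superoxide defence held 2 of 185 (1.08%, interval 0.131 to 3.85), DPEP3 and GGT6, a dipeptidase and a gamma-glutamyltransferase relative, at lowest folds of 3.26 and 2.52. Without replicate 1 its share was 8.11%, beside 7.96% of all. Drug and hormone conjugation held 2 of 199 (1.01%), GSTP1 and INMT. The sgRNA of GSTP1, a glutathione S-transferase, had 558 counts with PBS and 7550, 2964 and 1868 in the replicates, or folds of 4.39, 4.52 and 2.68. Folate and methyl group metabolism held 3 of 143 (2.10%), MTHFD2, SARDH and GCH1. Cytochrome P450 enzymes held 3 of 157 (1.91%), PTGIS, CYP2F1 and CYP4A11, but were above all without replicate 1 (9.55% beside 7.96%), with DESeq2 size factors (7.64% beside 5.58%) and with TMM scaling (8.28% beside 6.59%). Eicosanoid and retinoid enzymes held 1 of 139 (0.719%), PTGES2, a prostaglandin E synthase, at 10.8, 4.01 and 6.06, and were above all with DESeq2 size factors (5.76% beside 5.58%) and TMM scaling (8.63% beside 6.59%). Carbonic anhydrases held 0 of 40 and the other enzymes 0 of 93, which allows shares of up to 7.50% and 3.23% by the limit of 3 counts, and of up to 8.81% and 3.89% by the exact 95% interval. The intervals of all 26 classes include 2.47%, and no class is called different from the rest.

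The remaining classes held from 1 to 6 each. Lipases and esterases held 6 of 258, PLA2G12A, LYPLA1, LIPF, PLD3, PNPLA7 and PLD6. Fatty acid enzymes held 6 of 337, with ACSL1, ACOX2, ECI2, FADS1 and THEM4 among them. Of these ACSL1, a fatty acid activating ligase, was highest at 10.2, 6.16 and 4.88. The aldehyde and alcohol dehydrogenase class held 4 of 142, ALDH2, CRYZ, ZADH2 and MIOX. ALDH2, the mitochondrial aldehyde dehydrogenase, had 242 counts with PBS and 2049, 4598 and 4129 in the replicates, or folds of 2.74, 16.2 and 13.7. Cyclases and phosphodiesterases held 3 of 130 (2.31%), ADCY9, ADCY2 and PDE7A. The sterol and steroid class held 3 of 158 (1.90%), EBP, LBR and HSD11B2. Cofactor synthesis held 2 of 132, CPOX and PANK4 (1.52%, and 12.1% beside 7.96% of all without replicate 1). The glycosidases held 2 of 187 (1.07%), NEU1 and MAN2B2, and the hexosamine and nucleotide sugar class held 1 of 47 (2.13%), TGDS. The oxidase and cytochrome b class held 1 of 77 (1.30%), CYBB, the NADPH oxidase of phagocytes. That class was above all with DESeq2 size factors (7.79% beside 5.58%), with TMM scaling (10.4% beside 6.59%) and without replicate 1 (9.09% beside 7.96%).

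Of 105 genes that most dividing cells need, 6 of 268 well-counted sgRNAs were among the 120 (2.24%). They target CAD, COX11, COX5B, CPOX, GAPDH and PFAS. Of 94 enzymes largely restricted to other tissues, 2 of 252 were (0.794%), on TH and LIPF, a gastric lipase. Both shares had intervals that include 2.47% (0.826 to 4.81 and 0.0963 to 2.84). The study followed up 10 genes of the screen, GCLM among them, which had 7 well-counted sgRNAs, and 0 of the 7 were among the 120, which with so few allows a share of up to 42.9% by the limit of 3 counts and 41.0% by the exact interval. That list was picked on these libraries, from genes the paper found most downregulated with oxaliplatin. With 4 sgRNAs for each gene, most sgRNAs of these 10 genes had fewer than 100 PBS counts, beside 2283 of 7142 in the library. Those could not be among the 120, whatever their change with oxaliplatin. The absence was thus limited beforehand by the PBS minimum and by the choice of the list, and is no independent evidence. Of the 50 single-sgRNA entries, 43 were well counted and 5 were among the 120 (11.6%, interval 3.89 to 25.1, with 2.47% outside it). This interval treats the 43 sgRNAs as independent draws, so no difference from the rest is called. HGLibA_14108 had the highest lowest fold of these, with 1141 counts with PBS and 13781, 7316 and 8423 in the replicates, or folds of 3.92, 5.46 and 5.92. HGLibA_14142, HGLibA_14104, HGLibA_14136 and HGLibA_14139 followed, with lowest folds from 2.32 to 3.08.

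The PBS count enters both the rule and the fold, and it differed within the well-counted sgRNAs. The 120 had a median PBS count of 651, with a range from 111 to 4237, beside a median of 1243 for all 4859. The share among the 120 fell with the PBS count, from 4.68% of the 385 sgRNAs with at least 100 and under 300 counts, through 4.01% of the 1644 under 1000 and 1.69% of the 1951 under 3000, to 0.341% of the 879 with 3000 or more. The part of this dependence in each gain was not tested. Just inside the 2-fold line were the sgRNAs of TH (lowest fold 2.03), LBR (2.03) and PGM1 (2.00), and just outside it were those of CYB5R1 (1.999), ENTPD5 (1.999) and GDPD3 (1.995), so that membership near the line rests on small differences. The LBR sgRNA, with 231 counts with PBS, had folds of 2.03 (interval 1.77 to 2.34), 2.22 (1.90 to 2.59) and 2.18 (1.87 to 2.54), intervals that lie on both sides of 2.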

How the data were processed

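The authors amplified the sgRNA region of genomic DNA by PCR and deposited whole-number read counts per sgRNA, per library and as 1 table, with equal values for 100% of 7142 sgRNAs. The submitters' processing notes name MAGeCK and the mouse build mm10, and no coordinates are used here. How reads were matched and counted is not stated there. Counts were divided by the library total to give CPM, and a fold is the CPM with oxaliplatin over that with PBS, with no pseudocount. The labels give 4 groups of divided cells but do not name the oxaliplatin libraries as cultures of their own before treatment, so the spread between them may be technical. Exact binomial intervals (95%, Clopper-Pearson) of folds cover counting error only. Amplified reads that carry no molecular identifier do not each stand for a molecule. The intervals of shares treat the sgRNAs of a class or list as independent draws, which they are not. A floor of 3 counts is 0.336 CPM in the PBS library.

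The members, classes and lists were chosen with earlier results of these data known. Classes were set by gene symbol, the first matching pattern deciding. Named were every gene with 2 member sgRNAs, the 10 highest by lowest fold, those at the 2-fold line, the 3 with the fewest PBS counts, the extremes of spread, any of the study's followed-up genes (none was a member) and the 2 leading members of the 3 classes of highest and the 3 of lowest share. Other members are named to account for the 120, after their values were seen, and 1 member is counted but not reported here. Of 113 genes, 112 are current symbols of the RefSeq table (GRCh38.p14) and ZADH2 is a synonym there. Alternatives changed the scaling (DESeq2 1.42.0 size factors and edgeR 4.0.16 TMM), the PBS minimum, the fold, the interval and the libraries. Python 3.11.15, pandas 2.3.3, scipy 1.17.1 and R 4.3.3 were used. The rule was run on simulated counts, drawn around a mean that all libraries shared. That checks the calculation and not the error of the rule in these libraries, which differed far more.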

Additional observations from a re-analysis of the deposited data

How the results depend on the processing

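Most settings changed the number of sgRNAs by over 1.5 times. With DESeq2 size factors 271 sgRNAs and 21 genes with 2 of them passed, and with TMM 320 and 27, since both lift the median fold of replicate 1 over the well-counted sgRNAs from 0.199 to 0.733 and 0.783. All 120 were among these. A minimum of 1 PBS count gave 924 sgRNAs and 148 genes, a minimum of 300 left 1 gene, ITPK1, a fold of 1.5 gave 214 sgRNAs and 11 genes, a fold of 4 gave 26 and 0, and the mean over the oxaliplatin libraries gave 504 and 57. Leaving out each replicate in turn gave from 143 to 387 sgRNAs and from 2 to 40 genes, the highest of both without replicate 1. A minimum of 30 (143 sgRNAs and 3 genes) and the lower bound of the interval (106 and 2) stayed within 1.5 times. The share of a class left its interval in 9 of 27 cases with DESeq2 size factors, 14 with TMM, 20 without replicate 1 and 0 without replicate 2 or 3. The share of all well-counted sgRNAs itself rose from 2.47% to 5.58% with DESeq2 size factors, 6.59% with TMM and 7.96% without replicate 1. A class could leave its interval by that rise alone. Heparan, chondroitin and hyaluronan synthesis had rank 1 or 2 by share in all of these settings, while phosphoinositide enzymes moved from rank 2 to ranks 4 to 8. No paired analysis was possible because the PBS group has 1 library, whose label carries no replicate number. The single PBS library limits every value, since the depth of the counts says nothing of its spread between cultures.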
